A study of Mus musculus with 15 samples.

Results

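Adrenergic receptors are the cell-surface proteins through which noradrenaline and adrenaline act. The 6 genes described here were Adra1a, Adra1b and Adra1d of the α1 group, Adra2a and Adra2c of the α2 group, and Adrb1 of the β group. They were taken by name, out of 9 adrenergic receptor genes and 32285 genes in each count matrix, a choice made with earlier results of these data known. They were also the 6 of the 9 with the most UMIs, at least 762 each, against at most 555 for the others. They were followed in single-nucleus RNA-sequencing of the dorsal hippocampal formation (dHF) of 15 female C57BL6/J mice, 1 library per mouse. The 6 nulliparous (NP) mice were virgins. The 4 control RE mice had reproductive experience (RE), meaning breeding, pregnancy, birth, lactation and care of pups until weaning. The 5 stress RE mice had the same experience, with daily separation from the pups and limited nesting material late in the postpartum period. The labels call these groups NP, ControlPP and StressPP, and give no age. All 15 were wild type. Tissue was taken as bilateral micropunches that also held pieces of cortex, thalamus and ventral hippocampus, so that several cell classes below came from outside the dHF.

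Noradrenaline reaches the hippocampal formation mainly through axons of the locus coeruleus, a small brainstem nucleus that is active in arousal and stress. The α1 receptors couple to Gq proteins and raise intracellular calcium. The α2 receptors couple to Gi/o proteins, which lower cyclic AMP, and many of them sit on noradrenergic axons as brakes on release. The β receptors couple to Gs proteins, which raise cyclic AMP, and in the hippocampus they are known for their part in synaptic plasticity and memory. Because the cell bodies of noradrenergic neurons lie in the brainstem, receptor transcripts carried by those neurons were not sampled in these punches.

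After quality filters, 123907 nuclei remained, 5466 to 11438 per mouse. The libraries held between 40602582 and 96211264 unique molecular identifiers (UMIs, the count of captured transcript molecules), with medians of 3993 to 8754 UMIs per barcode. Each of the 105 pairs of libraries shared between 6 and 47 barcode sequences, at most 0.461% of the smaller library. The nuclei were clustered without the receptor genes, and clusters were named "-like" after marker genes, which gave 23 named classes with 116298 nuclei. Another 7577 nuclei fell in 4 clusters that no marker list named, which are kept here by their numbers. Cluster 13 held 4723 nuclei, was led by 1700007F19Rik, Ttn and Cd109, and expressed 6 of 7 CA3 markers, although none of them was among its 10 leading genes. Cluster 6 held 370 nuclei and was led by Csf2rb2, a mossy cell marker. Cluster 11 held 1480 nuclei led by Hs3st2 and Dpp10, and cluster 3 held 1004 nuclei led by Ebf2, Ebf1 and Ebf3. Several classes were unevenly shared among mice. Of 1196 habenular-like nuclei, 979 came from NP mice, and 43.3% of the 2294 striatal-type nuclei came from 1 stress RE mouse.

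The level of a receptor in a class is given below as counts-per-million (CPM), that is, the receptor's share of all UMIs summed over the nuclei of that class in 1 mouse. A mouse entered a class mean if it gave the class 10 nuclei or more, and means carry the SD between mice. Nuclear RNA is rich in unspliced transcripts and long genes offer more places for priming, so levels are compared between classes for a given receptor and not between receptors. The 6 genes differ greatly in length. On the mm10 (GRCm38) build with GENCODE vM21 annotation, Adra1a lies at chr14:66635251-66771168 on the plus strand and spans 135.9 kb, of which 6.42% is exonic. Adra1b lies at chr11:43774606-43901210 on the minus strand and spans 126.6 kb, of which 2.67% is exonic. Adra1d, at chr2:131545850-131562283 on the minus strand, spans 16.43 kb with 2 exons, and 670 bp of it are overlapped by the antisense gene Gm14285. Adra2a at chr19:54044151-54048982 and Adra2c at chr5:35278319-35281763, both on the plus strand, span 4.83 kb and 3.45 kb and are exonic throughout. Adrb1 lies at chr19:56722199-56733113 on the plus strand and spans 10.91 kb, of which 30.98% is exonic.

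Because a fixed level also depends on gene length, the count of classes at one level describes each receptor and does not rank them. A mean of at least 5 CPM was reached by Adrb1 in 21 of the 27 classes, by Adra1a in 17, by Adra1b in 12, by Adra1d in 5, by Adra2a in 3 and by Adra2c in 2. In all classes together, Adra1a was counted with 22372 UMIs, Adra1b with 14063, Adrb1 with 13842, Adra1d with 3890, Adra2c with 2506 and Adra2a with 762. The values for Adra2a and Adra2c therefore rest on few molecules per class and mouse.

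**Figure D1:**
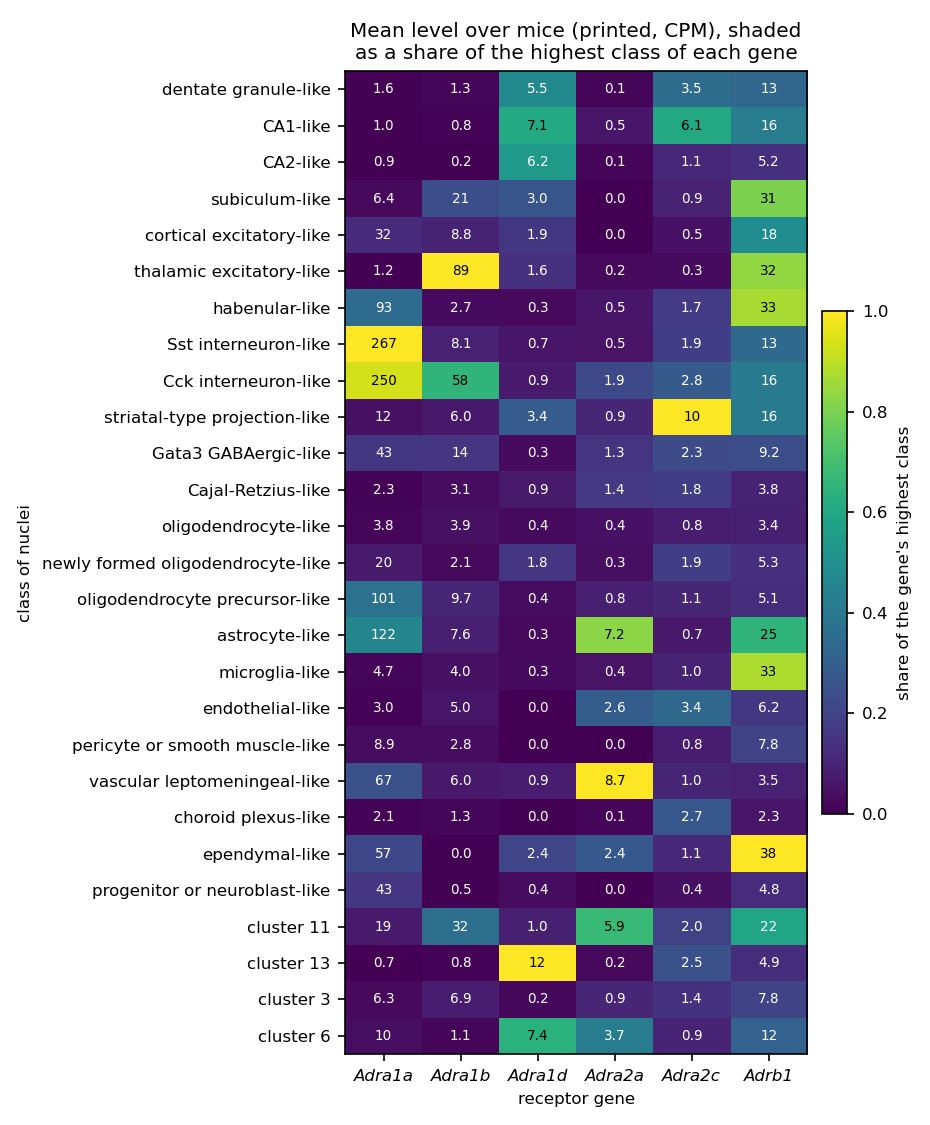
Heat map of the mean level of the 6 receptors (columns) in 27 classes of nuclei (rows), in CPM averaged over mice. The number in each cell is the mean CPM and the shade is that mean as a share of the gene's highest class, so shades compare classes within a column only. Bright cells are high. Adra1a is brightest in the Sst and Cck interneuron rows, Adra1b in the thalamic row, and Adra1d in the rows of cluster 13, cluster 6, CA1 and CA2.

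Adra1a, whose product is the α1A receptor, was highest in classes of interneurons and in glia. Within the Sst and Cck interneuron classes, a Lamp5-like minority described below held most of the Adra1a UMIs. In Sst interneuron-like nuclei it averaged 267 ± 48.2 CPM (SD, n = 15), with a lowest mouse at 209.9, a median of 257 and a highest mouse at 389.8. In Cck interneuron-like nuclei it averaged 250.3 ± 69.7 CPM (n = 15), from 144 through a median of 243 to 384. The mice of the 2 classes overlapped over most of this range. Astrocyte-like nuclei followed at 121.9 ± 20.1 CPM (n = 15), from 89.7 through a median of 122.1 to 155.6. Oligodendrocyte precursor-like nuclei (OPC-like), the cells that give rise to myelinating oligodendrocytes, held 101.2 ± 17.4 CPM (n = 15), from 62.5 through a median of 103.5 to 128.4. Several classes of principal neurons lay far below. The means were 1.57 ± 0.89 CPM in dentate granule-like nuclei, 0.97 ± 0.75 in CA1-like nuclei, 0.71 in cluster 13 and 1.18 ± 0.67 in thalamic excitatory-like nuclei, and mature oligodendrocyte-like nuclei had 3.84 ± 1.55. Classes in between were the VLMC-like (vascular leptomeningeal) nuclei at 66.8 ± 31.8 CPM and the Gata3 GABAergic-like nuclei at 43.3 ± 13.0 CPM. So were cortical excitatory-like nuclei at 31.8 ± 19.9 CPM (11 mice) and cluster 11 at 19.3 ± 11.6 CPM (11 mice). Subiculum-like nuclei had 6.38 ± 6.95 CPM (12 mice). The habenular-like nuclei averaged 93.0 ± 95.2 CPM over 12 mice, from 6.85 to 343.2, and the highest of these mice contributed only 10 nuclei. With all habenular-like nuclei summed the level was 52.3 CPM.

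Each class was compared with the next class down in the same mice by a two-sided exact sign-flip permutation test on log2(CPM + 1). The test asks whether the mean paired difference is 0. It was run for 4 steps in each of the 6 genes, and the 24 p-values were adjusted by the Benjamini-Hochberg method. The order itself came from the same values, so a step above 0 was likely from the outset and the p-values are given as a description. Of the 24 steps, 4 had an adjusted p under 0.05. For Adra1a, the step from Cck interneuron-like to astrocyte-like nuclei was 1.00 on the log2 scale, was seen in 15 of 15 mice and had the smallest p that the test can give (exact permutation p = 6.104e-05, adjusted p = 0.0015). That step included Lamp5 interneuron-like nuclei within the Cck class, and is set beside the finer classes below. The step from Sst to Cck interneuron-like nuclei was 0.13 (11 of 15 mice, exact permutation p = 0.169, adjusted p = 0.306), and the step from astrocyte-like to OPC-like nuclei was 0.27 (11 of 15 mice, adjusted p = 0.0764 by the exact permutation test). Neither of those 2 steps passed the threshold.

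Depth differs between classes, and the share of nuclei with a UMI follows depth, so each nucleus was also thinned to 1000 UMIs. After thinning, 23.5 ± 4.0% of Sst interneuron-like nuclei, 17.2 ± 6.6% of Cck interneuron-like nuclei, 10.5 ± 2.5% of astrocyte-like nuclei and 9.17 ± 2.7% of OPC-like nuclei had an Adra1a UMI (n = 15 each). Without thinning these shares were 61.4%, 58.1%, 29.1% and 31.3%, at median depths of 13220, 11340, 3404 and 4466 UMIs. The share in oligodendrocyte-like nuclei, taken as background because they carry little of the gene, was 0.365% after thinning and 0.949% before at a median of 2503 UMIs, and in CA1-like nuclei, with a median of 13460 UMIs, it was 0.0199% and 1.06%. Thinning left out nuclei under 1000 UMIs, which were 1087 of 43527 for NP mice, 682 of 39196 for control RE mice and 948 of 41184 for stress RE mice.

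A finer clustering of the same nuclei showed where within the interneurons Adra1a sat. At Leiden resolution 2, a set of 812 nuclei with markers of Lamp5 interneurons separated from the other classes. It took 678 of the 1767 Sst interneuron-like nuclei and 134 of the 1072 Cck interneuron-like nuclei. Lamp5 interneurons of the hippocampus include neurogliaform and ivy cells, which are known for slow inhibition by diffuse release of GABA. Averaged over mice, this set held 161 CPM of Lamp5, 1072 of Reln, 234 of Nos1, 258 of Hapln1, 148 of Npy and 91.1 of Lhx6, and only 1.32 of Sst and 1.34 of Vip. The remaining Sst interneuron-like nuclei held 198 CPM of Sst and 7.80 of Lamp5, and the remaining Cck interneuron-like nuclei held 1225 CPM of Cnr1, 111 of Vip and 3.97 of Lamp5. Npy and Lhx6 were nearly as high in the remaining Sst interneuron-like nuclei, at 135.1 and 75.35 CPM. Ndnf was at 101.5 CPM in the Lamp5 set and 112.1 in the remaining Cck interneuron-like nuclei.

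In the Lamp5 interneuron-like nuclei Adra1a averaged 725 ± 145 CPM (n = 15), from 526 through a median of 670 to 980. The remaining Cck interneuron-like nuclei averaged 131.4 ± 46.9 CPM (43.9 to 261.4, median 123.5) and the remaining Sst interneuron-like nuclei 80.6 ± 32.4 CPM (41.9 to 157.1, median 75.9). The lowest mouse of the first set stood above the highest mouse of the other 2 sets, and the Lamp5 interneuron-like level was higher in 15 of 15 mice. Within a mouse the ratio to the Cck set ran from 3.66 to 14.7 with a median of 5.39, and the ratio to the Sst set from 4.26 to 17.9 with a median of 10.3. The Lamp5 set was singled out after the values were seen, and no test was run of its level against the other 2 sets. Lamp5 interneuron-like nuclei were 0.655% of all nuclei and held 32.3% of all Adra1a UMIs (7231 of 22372). They were 38.4% of the nuclei of the coarser Sst class and held 78.4% of its Adra1a UMIs, and were 12.5% of the Cck class with 52.7% of its Adra1a UMIs. After thinning, 49.5 ± 7.97% of them had an Adra1a UMI (94.7% unthinned), against 8.40 ± 4.23% in the Sst set (41.3% unthinned) and 9.95 ± 5.02% in the Cck set (51.4% unthinned). With these nuclei apart, the order of the other 2 turned round: Cck interneuron-like nuclei were above Sst interneuron-like nuclei in 12 of 15 mice, and the Sst minus Cck difference was -0.72 on the log2 scale (exact permutation p = 0.001343, adjusted p = 0.0076). In the same finer clustering astrocyte-like nuclei averaged 125.0 ± 22.3 CPM and OPC-like nuclei 100.8 ± 17.8 CPM (n = 15). The remaining Cck set was thus close to astrocyte-like nuclei and the remaining Sst set had a mean below both glial classes. These steps were not tested.

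**Figure D2:**
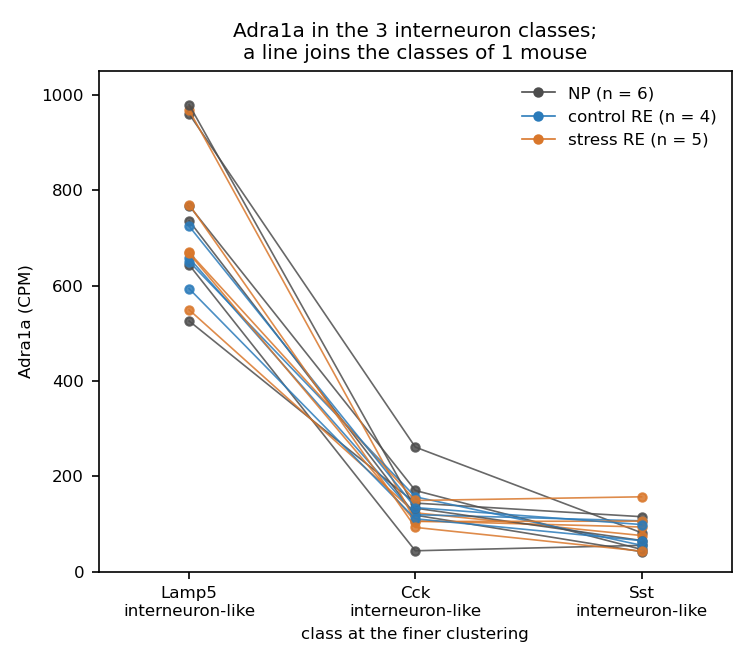
Adra1a in CPM (vertical axis) in the Lamp5, Cck and Sst interneuron-like nuclei of the finer clustering (horizontal axis). Each line joins the 3 values of 1 of the 15 mice and is coloured by group. All Lamp5 interneuron-like values lie at or above 526 CPM and all others at or below 261.4 CPM.

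Astrocyte-like nuclei were made of 2 clusters that also differed in receptors. Cluster 20 (5996 nuclei, led by Gm20713 and Slc1a3) held 104 ± 18 CPM of Adra1a and cluster 23 (3496 nuclei, led by Etnppl) held 151 ± 29 CPM (n = 15), and cluster 23 was the higher in 15 of 15 mice. Adra1b had 3.83 CPM in the former and 13.2 in the latter, again with cluster 23 higher in 15 of 15 mice, and Adra2a had 4.87 and 10.7, higher in 12 of 15. Adrb1 stood at 23.9 and 26.5 CPM, higher in 10 of 15 mice. The receptors were not among the genes used for clustering, and no test was made between clusters.

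Adra1b, the gene of the α1B receptor, had its highest level in thalamic excitatory-like nuclei, which came from tissue bordering the dHF. These averaged 89.0 ± 15.9 CPM (n = 15), from 49.9 through a median of 87 to 114.3, and held 69.0% of all Adra1b UMIs. The next highest level was in Cck interneuron-like nuclei, at 58.1 ± 15.7 CPM (n = 15), from 37.6 through a median of 56.5 to 92.8. Whether these interneurons came from the dHF or from neighbouring tissue was not tested. The thalamic level was the higher in 14 of 15 mice, by 0.63 on the log2 scale (exact permutation p = 0.0014, adjusted p = 0.0084), although some mice of the 2 classes overlapped. With nuclei thinned to equal depth this step was 0.14, with an adjusted p of 0.855 by the same exact permutation test. Cluster 11 followed at 32.0 ± 18.5 CPM (11 mice), subiculum-like nuclei at 21.5 ± 6.2 (12 mice) and Gata3 GABAergic-like nuclei at 14.1 ± 3.8 (n = 15). The steps between these 3 and from Cck interneuron-like nuclei to cluster 11 had adjusted p-values of 0.0609 to 0.925 in the exact permutation tests.

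In the finer clustering Adra1b averaged 54.6 CPM in Cck, 16.7 in Lamp5 and 10.1 in Sst interneuron-like nuclei, so that all 3 sets carried it and the order differed from that of Adra1a, which was highest in the Lamp5 set. No test of Adra1b was made between these sets. Against the 21.5 CPM of subiculum-like nuclei, Adra1b was at 1.31 CPM in dentate granule-like, 0.82 in CA1-like and 0.24 in CA2-like nuclei. Thinned to 1000 UMIs, 8.38 ± 2.58% of thalamic and 8.03 ± 4.48% of Cck interneuron-like nuclei had an Adra1b UMI, against 0.145% of CA1-like nuclei. Without thinning the 3 shares were 59.2%, 36.8% and 1.13%.

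Adra1d, the gene of the α1D receptor, ran the other way between Cck or Sst interneuron-like nuclei and CA1-like, CA2-like and dentate granule-like nuclei. Its highest level was 11.6 ± 2.3 CPM in cluster 13 (n = 15), from 8.58 through a median of 11.1 to 17.5. Cluster 6 held 7.44 ± 3.54 CPM (13 mice), CA1-like nuclei 7.09 ± 1.21, CA2-like nuclei 6.24 ± 2.80 and dentate granule-like nuclei 5.50 ± 0.94 CPM (n = 15 each). The dentate granule-like nuclei, being the most numerous class, held 45.7% of the gene's UMIs. The step from cluster 13 to cluster 6 was 0.74 on the log2 scale and was seen in 12 of 13 mice (exact permutation p = 0.00122, adjusted p = 0.0084). With at least 30 nuclei per mouse and class it was 0.47 (exact permutation p = 0.125, adjusted p = 0.287). The next steps ran from -0.12 to 0.26 and did not pass the threshold. Interneurons and glia had little, with 0.86 CPM in Cck and 0.71 in Sst interneuron-like nuclei, 0.29 in astrocyte-like and 0.36 in oligodendrocyte-like nuclei. After thinning, 0.898% of cluster 13, 0.571% of CA1-like and 0.596% of dentate granule-like nuclei had a UMI, against 0.0318% of astrocyte-like nuclei. Among the dentate granule-like clusters, Adra1d was 3.75 ± 0.83 CPM in cluster 0, which had Trpc6 among its leading genes, 4.90 ± 1.96 CPM in cluster 1 (6839 nuclei, with a median of 2355 UMIs), and 7.78 ± 1.38 CPM in cluster 2, which had Dsp. The level in cluster 2 was above that in cluster 0 in 15 of 15 mice.

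**Figure D3:**
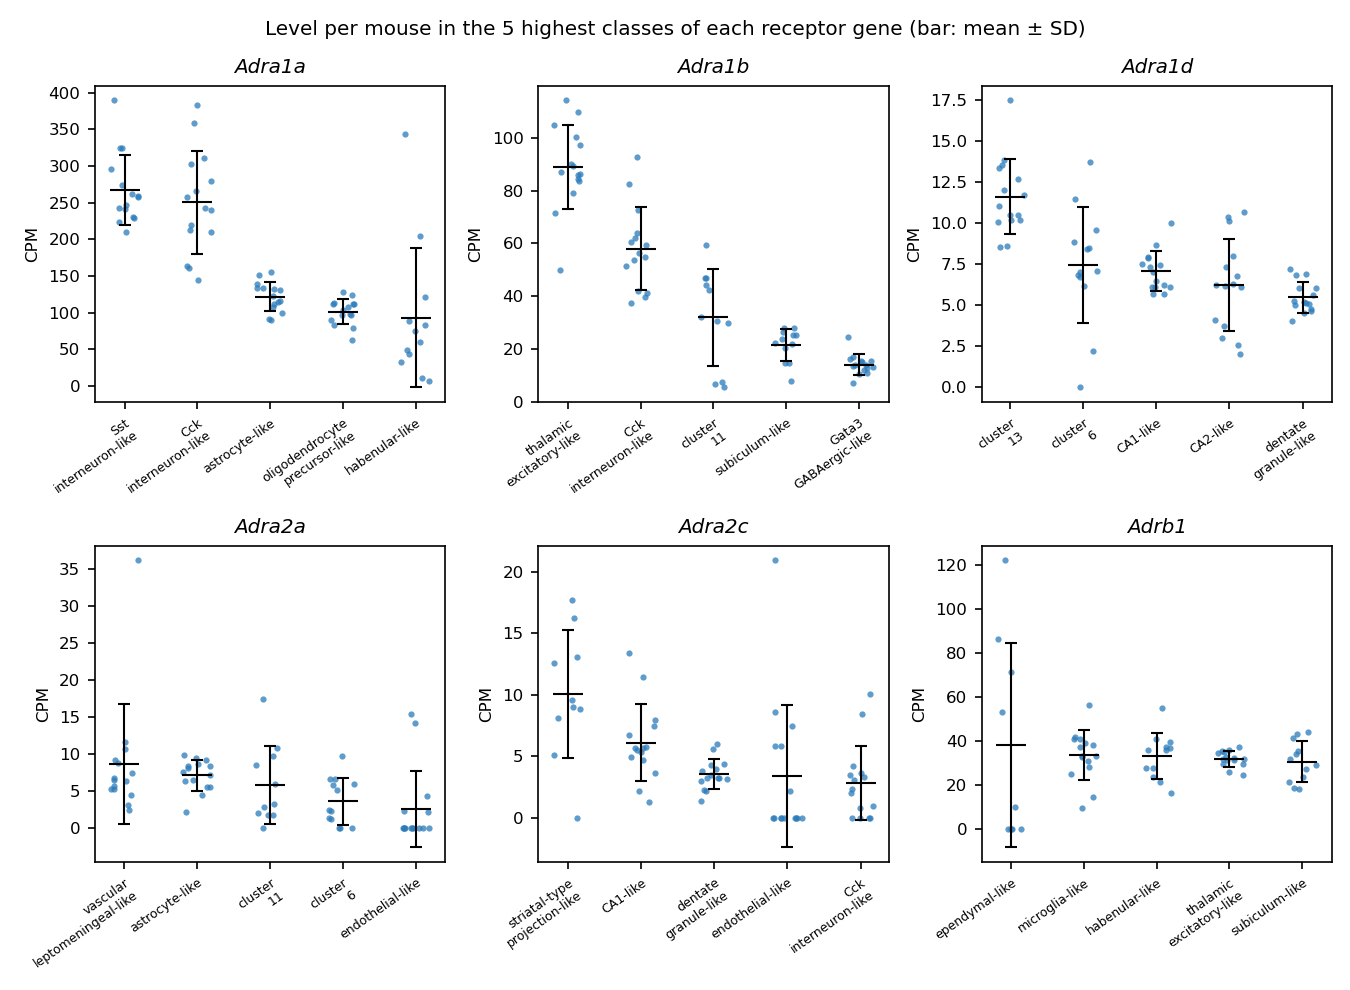
Level of each of the 6 receptors in CPM (vertical axes) in the 5 classes with its highest means (horizontal axes), 1 panel per gene. Points are mice, and bars give the mean with the SD between mice. The vertical axes differ between panels. Neighbouring classes overlap in most panels, and the mean Adra1a levels of the interneuron classes stand above that of astrocyte-like nuclei.

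Adra2a encodes the α2A receptor, which is found both on noradrenergic axons and on their targets. It was the rarest of the 6 genes. VLMC-like nuclei had 8.68 ± 8.03 CPM (n = 15), from 2.45 through a median of 6.51 to 36.2, on 40 UMIs in all. Astrocyte-like nuclei had 7.18 ± 2.10 CPM (n = 15), from 2.24 through a median of 7.6 to 9.91, on 240 UMIs. The VLMC-like level was the higher in 6 of 15 mice, and the step between the 2 was 0.04 on the log2 scale (adjusted p = 0.925, exact permutation test). Thinned to equal depth it was -0.56 (adjusted p = 0.529). Cluster 11 held 5.86 ± 5.29 CPM (11 mice). Dentate granule-like nuclei had 0.10 CPM. Thinned, 1.01% of VLMC-like and 0.792% of astrocyte-like nuclei had a UMI, and 0.0134% of dentate granule-like nuclei.

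Adra2c, the gene of the α2C receptor, is known for its place in striatal projection neurons. Here it was highest in the striatal-type nuclei, at 10.0 ± 5.2 CPM over 10 mice, from 0 through a median of 9.28 to 17.7. The lowest and highest values were those of NP mice 63 and 27, on 0 and 3 UMIs in 13 nuclei each. In the hippocampus Adra2c reached 6.11 ± 3.12 CPM in CA1-like nuclei (1.26 to 13.4, median 5.68) and 3.53 ± 1.21 CPM in dentate granule-like nuclei (1.41 to 5.96, median 3.24), both with n = 15. CA1-like nuclei were above dentate granule-like nuclei in 14 of 15 mice, by 0.56 on the log2 scale (adjusted p = 0.0084, exact permutation test). The step from striatal-type to CA1-like nuclei was 0.49 and was seen in 9 of 10 mice (exact permutation p = 0.0469, adjusted p = 0.125). Thinning turned the mean log2 step, to -0.18 (adjusted p = 0.886, exact permutation test). The thinned mean levels still ran the first way, at 15.2 CPM in striatal-type and 5.70 in CA1-like nuclei. At Leiden resolution 2 the step was larger, at 0.92 (adjusted p = 0.0221, exact permutation test). Thalamic excitatory-like nuclei had 0.31 CPM. After thinning, 1.51% of striatal-type, 0.559% of CA1-like, 0.361% of dentate granule-like and 0.0267% of thalamic excitatory-like nuclei had a UMI. In the striatal-type class, cluster 7 (454 nuclei, led by Cpa6 and Ano2) held 16.0 ± 16.2 CPM of Adra1b and 7.06 ± 8.15 of Adra1d over 9 mice. Cluster 37 (1840 nuclei, with Drd2 among its leading genes) held 0.689 and 0.275 CPM over 8 mice, while Adra2c stood at 8.10 CPM in cluster 7 and 11.5 in cluster 37.

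Adrb1, the gene of the β1 receptor, was found in most classes. Microglia-like nuclei averaged 33.4 ± 11.4 CPM (n = 15), from 9.53 through a median of 33.3 to 56.5, and thalamic excitatory-like nuclei 31.9 ± 3.6 CPM (n = 15), from 24.3 through a median of 31.8 to 37.1. Habenular-like and subiculum-like nuclei had 33.1 ± 10.5 and 30.6 ± 9.3 CPM (12 mice each), and astrocyte-like nuclei had 25.0 ± 4.4 CPM. The steps between microglia-like, habenular-like, thalamic and subiculum-like nuclei were between -0.06 and 0.10 on the log2 scale, with adjusted p-values of 0.68 to 0.987 in the exact permutation tests. The highest mean, 38.2 ± 46.6 CPM, belonged to ependymal-like nuclei, but rested on 18 UMIs in 9 mice, 4 of which had none. On the log2 scale the ependymal-like level was lower than the microglia-like one by a mean of -1.88 (higher in 4 of 9 mice, exact permutation p = 0.121, adjusted p = 0.291), and at Leiden resolution 2 the step was -1.74 (adjusted p = 0.0187). CA1-like nuclei had 16.2 ± 2.6 CPM, dentate granule-like nuclei 12.6 ± 1.5, with 28.6% of the gene's UMIs, and CA2-like nuclei 5.2. Cluster 13 had 4.9 CPM, and Cck and Sst interneuron-like nuclei had 15.6 and 13.0 CPM. The lowest levels were 2.34 CPM in choroid plexus-like and 3.40 in oligodendrocyte-like nuclei. Thinned, 4.02% of subiculum-like, 3.16% of microglia-like, 2.54% of thalamic and 2.22% of astrocyte-like nuclei had a UMI, against 0.386% of oligodendrocyte-like nuclei. Unthinned, the shares were 6.79% in microglia-like, 34.3% in thalamic and 0.916% in oligodendrocyte-like nuclei.

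Adra2b and Adrb3, of the same family, were rarer, and Adra2b was concentrated in 1 class. Adra2b had 4.47 ± 1.40 CPM in thalamic excitatory-like nuclei, with 87.8% of its 555 UMIs. Adrb3 had 11.5 ± 14.9 CPM in ependymal-like nuclei, on 8 UMIs with 5 of 9 mice at 0, and 6.68 ± 5.49 in choroid plexus-like nuclei. Its UMIs were spread over classes, with 20.1% in Gata3 GABAergic-like, 19.1% in choroid plexus-like and 17.65% in CA1-like nuclei. Adrb3 overlaps the antisense gene Gm45470 over 11647 bp.

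Genes of noradrenaline synthesis, transport and breakdown differed in how widely they were counted. Dbh, which makes noradrenaline from dopamine, had 210 UMIs, Pnmt, which makes adrenaline, had 24, and Slc6a2, the noradrenaline transporter, had 103 and stayed under 1 CPM in every class. Th, the rate-limiting enzyme of catecholamine synthesis, had 115 UMIs. Its highest mean was 4.81 ± 5.46 CPM in choroid plexus-like nuclei, on 19 UMIs with 3 of 13 mice at 0. Habenular-like nuclei were close, at 4.25 ± 4.41 CPM on 37 UMIs. Ddc, which makes dopamine from L-DOPA and also serves serotonin synthesis, had 5208 UMIs, with 81.9 CPM in endothelial-like, 63.3 in newly formed oligodendrocyte-like and 43.6 in oligodendrocyte-like nuclei. Slc18a2, the vesicular monoamine transporter, had 9812 UMIs and a mean of at least 5 CPM in all 27 classes. It varied widely between mice, from 1.02 to 16.6 CPM in dentate granule-like and from 1.77 to 23.0 in thalamic excitatory-like nuclei. Whether RNA from outside the nuclei had a part in these values was not tested. Among the breakdown enzymes, Maoa reached at least 5 CPM in all 27 classes. Maoa was at 174.8 CPM in endothelial-like nuclei and Maob at 105 in astrocyte-like and 218 in choroid plexus-like nuclei. Of the low-affinity monoamine transporters, Slc29a4 was at 60.5 CPM in dentate granule-like nuclei, with 86.6% of its UMIs, and Slc22a3 was at 23.9 CPM in striatal-type nuclei and reached 5 CPM in 3 classes.

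For each receptor the 3 genes with the most similar mean levels over the 23 named classes were found by Pearson's r on log2(CPM + 1), among 17787 genes. The classes share libraries and differ in depth, so r is given as a description. The genes were Spsb4 (r = 0.76), Mtss2 (0.75) and Gfpt2 (0.74) for Adra1a, and Mcf2 (0.81), Grm4 (0.79) and Grik1 (0.79) for Adra1b. For Adra1d they were Nsun2 (0.85), Gm2762 (0.83) and Traip (0.82). Adra2a was most like Gli1 (0.89), Gjb6 (0.86) and Ranbp3l (0.85). Gjb6 is a gap junction gene of astrocytes and one of the markers used to name that class. Here Gjb6 and Ranbp3l were higher in VLMC-like nuclei (211 and 1938 CPM) than in astrocyte-like nuclei (119 and 112 CPM). Gli1 was at 31.4 CPM in astrocyte-like and 26.0 in VLMC-like nuclei. Adra2c was most like C030005K15Rik (0.74), 4930525C09Rik (0.72) and Akap5 (0.70). Adrb1 was most like Gm50100 (0.92), Sdad1 (0.76) and Adamts16 (0.74).

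The groups were then compared to see whether reproductive experience, or stress during it, went with another receptor level in any class. UMIs were summed per mouse and class and tested with edgeR's quasi-likelihood test, with Benjamini-Hochberg adjustment over all genes of the class. Of 162 pairs of a receptor and a class, 49 passed the filter on low counts, which gave 143 tests over the 3 contrasts. They were 37 tests of Adra1a, 33 of Adra1b, 12 of Adra1d, 6 of Adra2a, 15 of Adra2c and 40 of Adrb1. No receptor had an adjusted p under 0.05 in any class or contrast with edgeR, and none did with DESeq2. The smallest adjusted p was 0.788. Over all genes and classes, 0% of tests passed this threshold for control RE minus NP, 0.00174% for stress RE minus control RE and 0% for stress RE minus NP. At an unadjusted p under 0.05, edgeR found 4 of 47 receptor tests for control RE minus NP, 5 of 47 for stress RE minus control RE and 6 of 49 for stress RE minus NP, and DESeq2 found 3 in each. The shares of all tests under this looser threshold were 3.31%, 2.51% and 3.65%. The median SE of a receptor's log2 fold change was 0.309, and a difference has to be well above its SE to pass either threshold.

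**Figure D4:**
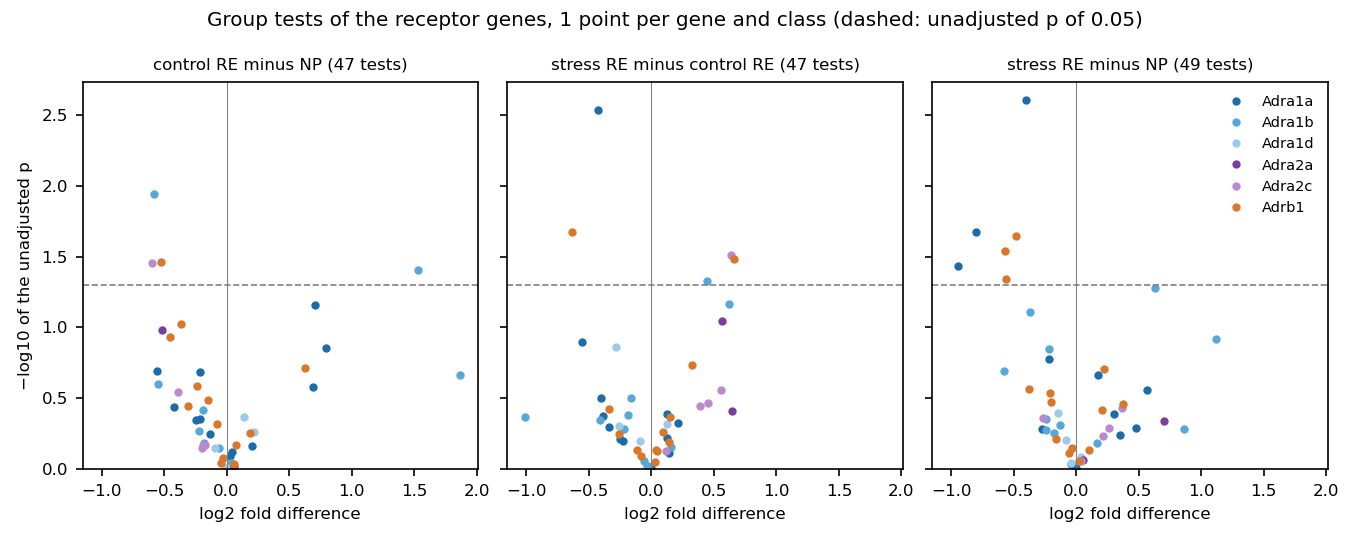
Log2 fold change (horizontal axis) against -log10 of the unadjusted p (vertical axis) for every receptor test, 1 panel per contrast with 47, 47 and 49 tests. Each point is 1 receptor in 1 class, and the dashed line marks an unadjusted p of 0.05. There are 4, 5 and 6 points above the line, and no point has an adjusted p under 0.05.

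All receptor and class pairs with an unadjusted p under 0.05 are described next, in the order of the receptors. None passed the adjustment, so they are given as values. Where groups are said not to overlap, the pair was picked by its p, and the share of all genes without overlap was not counted. Contrasts that share a group are not independent of each other. In OPC-like nuclei the 6 NP mice had Adra1a levels of 97.9, 103.5, 108.2, 111.5, 112.8 and 128.4 CPM. The 4 control RE mice had 97.3, 111.2, 111.5 and 124.0 CPM, and the 5 stress RE mice 62.5, 78.8, 83.4, 90.5 and 96.9 CPM. Every stress RE mouse lay below every mouse of the other 2 groups, whose values overlapped. The log2 fold change was -0.43 (SE 0.13, unadjusted p = 0.00293 and adjusted p = 1.0 in edgeR) for stress RE minus control RE, -0.40 (SE 0.12, unadjusted p = 0.00247, adjusted p = 1.0) for stress RE minus NP, and 0.03 (unadjusted p = 0.815) for control RE minus NP. Within batches 2 and 3, the log2 ratio of the group means for stress RE over control RE was -0.42 and -0.45, and for stress RE over NP it was -0.47, -0.23 and -0.55 within batches 1, 2 and 3. In batch 1 the stress RE value was that of a single mouse, and control RE was not represented. The summed level of the 7 precursor markers ran from 9774 to 10790 CPM in NP, from 9910 to 10820 in control RE mice and from 9670 to 11780 in the stress RE mice. Marker sums of astrocytes and Lamp5 interneurons in the same nuclei also overlapped between groups. Whether RNA of other classes had a part in the Adra1a values was not tested. The 8 astrocyte markers summed to 663 to 909, 603 to 780 and 620 to 961 CPM in NP, control RE and stress RE mice, and the 6 Lamp5 interneuron markers to 63 to 148, 62 to 82 and 47 to 114 CPM.

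In mature oligodendrocyte-like nuclei, the class taken as background above, Adra1a was low in every group. It had 4.71 ± 1.84 CPM in NP (n = 6), 3.89 ± 1.13 in control RE (n = 4) and 2.74 ± 0.71 in the stress RE mice (n = 5). Its log2 fold change was -0.80 for stress RE minus NP (edgeR, SE 0.31, unadjusted p = 0.0212), with -0.97, -0.88 and -0.21 within batches 1, 2 and 3. In thalamic excitatory-like nuclei it had 1.62, 1.03 and 0.78 CPM, with -0.94 for stress RE minus NP (unadjusted p = 0.0365, edgeR) and -1.33, -0.87 and -0.72 within the batches. In the Sst interneuron-like class of the coarser clustering, most of whose Adra1a UMIs came from Lamp5 interneuron-like nuclei, the groups overlapped, from 241.6 to 389.8 CPM in NP, 209.9 to 324.7 in control RE mice and 223.0 to 273.9 in the stress RE mice, and the log2 fold changes were -0.21, -0.01 and -0.22 for control RE minus NP, stress RE minus control RE and stress RE minus NP, the order kept wherever 3 values follow (unadjusted p = 0.206, 0.975 and 0.167 in edgeR). At Leiden resolution 2, with the Lamp5 interneuron-like nuclei apart, they were 0.34, 0.20 and 0.54. The share of Lamp5 interneuron-like nuclei in that class is given as values without a test, and the stress RE mice overlapped both other groups. It was 44.8 ± 2.9% in NP (40.7 to 47.8), 37.3 ± 3.5% in control RE (32.1 to 39.6) and 35.0 ± 6.2% in the stress RE mice (29.3 to 42.7), and its part in the Adra1a values was not tested. Within the Lamp5 interneuron-like nuclei Adra1a was at 769 ± 177 CPM in NP, 657 ± 53.7 in control RE mice and 725 ± 157 in the stress RE mice, with a log2 fold change of -0.19 for control RE minus NP (edgeR, SE 0.18, unadjusted p = 0.298).

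The smallest unadjusted p of Adra1b was in Cck interneuron-like nuclei. The gene averaged 66.9 ± 9.0 CPM in NP (59.3 to 82.4) and 43.7 ± 5.4 in control RE mice, whose values were 39.8, 41.4, 41.9 and 51.6 CPM, so that these 2 groups did not overlap. The stress RE mice had 37.6, 53.7, 55, 56.5 and 92.8 CPM and spanned both. The log2 fold change was -0.58 for control RE minus NP (SE 0.21, unadjusted p = 0.0115 and adjusted p = 0.988 in edgeR) and 0.45 for stress RE minus control RE (unadjusted p = 0.0471). Within batches 2 and 3 the former was -0.72 and -0.61 and the latter 0.87 and -0.007, as log2 ratios of group means. With the Lamp5 interneuron-like nuclei apart, the remaining Cck interneuron-like nuclei had 67.5 ± 11.8 CPM in NP (53.0 to 85.9) and 39.7 ± 3.2 in control RE (36.1 to 43.5). The stress RE mice had 50.9 ± 23.5 CPM (34.2 to 91.5, median 45.7), the highest being mouse 77. The log2 fold change was -0.72 for control RE minus NP (SE 0.24, unadjusted p = 0.00755 and adjusted p = 0.975 in edgeR). It was 0.38 for stress RE minus control RE (unadjusted p = 0.143 in edgeR). The remaining Sst interneuron-like nuclei gave Adra1b values of 0.76 for stress RE minus NP (unadjusted p = 0.0117, adjusted p = 0.913 in edgeR) and 0.65 for stress RE minus control RE (unadjusted p = 0.0364). In cluster 11, Adra1b had 18.3 ± 13.7 CPM in 4 NP, 45.2 ± 11.3 in 4 control RE mice and 32.6 ± 22.5 in 3 stress RE mice, with 1.53 for control RE minus NP (SE 0.67, unadjusted p = 0.0395 and adjusted p = 0.788 in edgeR). The within-batch values there were 2.84 and 0.32, each resting on 1 NP mouse with 15 nuclei, which had 1 UMI of Adra1b in batch 2 and 9 in batch 3. In its highest class, the thalamic excitatory-like nuclei, the log2 fold changes were -0.06, -0.16 and -0.22 and the smallest unadjusted p was 0.142 (edgeR).

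Adra1d showed no difference past the looser threshold in any of its 12 tests. In cluster 13 it held 12.2 ± 3.1 CPM in NP, 11.6 ± 1.7 in control RE mice and 10.9 ± 1.7 in the stress RE mice, with log2 fold changes between -0.09 and 0.00. Adra2a also had none in its 6 tests, and in VLMC-like nuclei, its highest class, it was too rare to test. Adra2c in dentate granule-like nuclei had 3.93 ± 0.99 CPM in NP, 2.48 ± 0.86 in control RE mice and 3.90 ± 1.35 in the stress RE mice, with -0.60 for control RE minus NP (unadjusted p = 0.0352) and 0.64 for stress RE minus control RE (unadjusted p = 0.0308), both in edgeR. These contrasts share the control RE mice. Within batches 2 and 3 the former was -0.23 and -0.69 and the latter 0.20 and 1.09, as log2 ratios of group means. In the striatal-type nuclei its log2 fold changes were -0.20, 0.56 and 0.36 with 3 or 4 mice in a group. NP mice 27 and 63 gave only 13 nuclei each there.

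Adrb1 in Cck interneuron-like nuclei had 17.4 ± 5.8 CPM in NP (10.2 to 25.9), 18 ± 3.1 in control RE (15.3 to 22.4) and 11.5 ± 1.5 in the stress RE mice (9.19 to 12.7). The stress RE and control RE mice did not overlap, and the stress RE and NP mice did. The log2 fold change was -0.64 for stress RE minus control RE (edgeR, SE 0.25, unadjusted p = 0.0212), with -0.74 and -0.61 within batches 2 and 3, and -0.57 for stress RE minus NP (unadjusted p = 0.0288), with -0.87, -0.49 and -0.31 within batches 1, 2 and 3. In Sst interneuron-like nuclei it had 15.1, 9.96 and 12.8 CPM in the 3 groups, with -0.53 for control RE minus NP (unadjusted p = 0.0344), and -0.90 and -0.14 within batches 2 and 3. With the Lamp5 interneuron-like nuclei apart it was -0.46 (unadjusted p = 0.182). In Gata3 GABAergic-like nuclei it had 11.0 ± 1.7, 8.45 ± 1.39 and 7.6 ± 2.0 CPM, with -0.48 for stress RE minus NP (unadjusted p = 0.0224), and -0.12, -0.57 and -0.75 within batches 1, 2 and 3. At Leiden resolution 2, 3207 nuclei led by Mecom, 6330411D24Rik and Ebf3, which also lead the largest cluster of this class, formed a cluster that the marker rule left unnamed. In subiculum-like nuclei it had 32.0 ± 10.4 CPM in 6 NP, 22.1 ± 4.6 in 3 control RE mice and 36.2 ± 5.0 in 3 stress RE mice, with 0.66 for stress RE minus control RE (unadjusted p = 0.0331). The stress RE mice had 31.55, 35.53 and 41.53 CPM and the control RE mice 18.03, 21.16 and 27.02 CPM. With 3 mice per group and the share over all genes not counted, this separation is given as values only. Batch 2 gave 0.79 with 1 control RE mouse, whereas batch 3 held no stress RE mouse with enough nuclei. In habenular-like nuclei, of which few came from RE mice, it had 38.6 ± 9.1 CPM in 6 NP and 27.1 ± 10.4 in 4 stress RE mice, with -0.57 for stress RE minus NP (unadjusted p = 0.0458), and -1.05, -0.96 and -0.09 within batches 1, 2 and 3, the former 2 with 1 stress RE mouse each. In microglia-like nuclei, where Adrb1 was high, the log2 fold changes were 0.19, -0.08 and 0.10, with unadjusted p-values of 0.561 and above. All of these p-values are from edgeR.

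**Figure D5:**
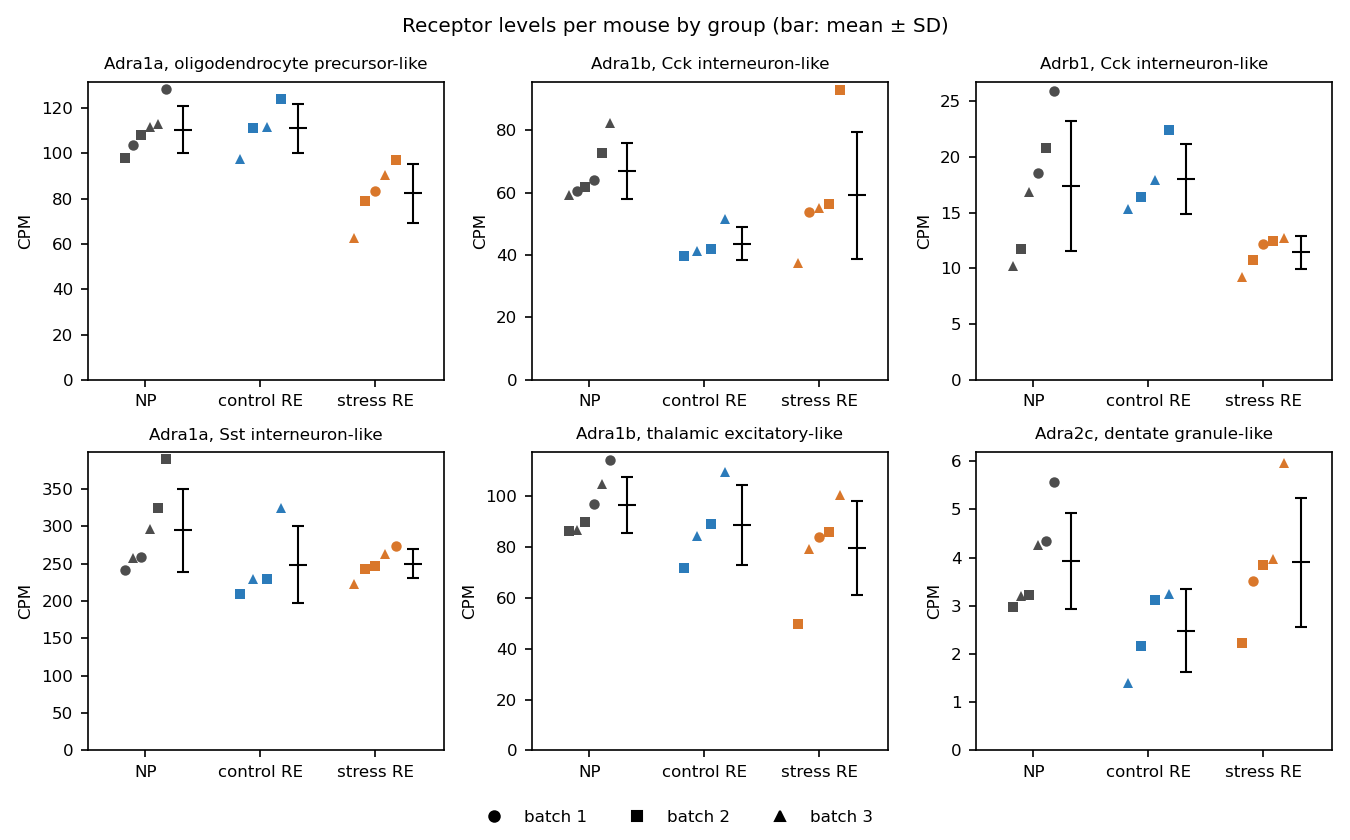
CPM per mouse (vertical axes, starting at 0) by group (horizontal axes) for 6 pairs of a receptor and a class. Marker shape gives the batch, and bars give the mean with the SD. In OPC-like nuclei the 5 stress RE mice lie at or below 96.9 CPM of Adra1a and all other mice at or above 97.3. In the Adra1a Sst, Adra1b thalamic and Adra2c dentate panels the groups overlap.

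The other genes of adrenergic signalling were counted in the same fits, and none of them had an adjusted p under 0.05 in any class, in either direction. The 3 other receptor genes gave 2 tests per contrast, none under an unadjusted p of 0.05. The other lists were 11 genes of noradrenaline synthesis, transport and breakdown, of which 8 were tested, 10 genes of Gq signalling, 10 of Gi/o signalling, 15 of Gs and cyclic AMP signalling and 9 of receptor desensitisation, all of which were tested in at least 1 class. At an unadjusted p under 0.05 in edgeR, the share of all tests was 3.31% for control RE minus NP, 2.51% for stress RE minus control RE and 3.65% for stress RE minus NP. In the same order, the Gs list had 21 of 323 (6.5%), 3 of 323 (0.929%) and 16 of 341 (4.69%). The Gq list had 14 of 175 (8%), 6 of 175 (3.43%) and 11 of 187 (5.88%). The Gi/o list had 11 of 214 (5.14%), 4 of 214 (1.87%) and 9 of 226 (3.98%), and the desensitisation list 6 of 161 (3.73%), 2 of 161 (1.24%) and 9 of 169 (5.33%). The synthesis and breakdown list had 2 of 77 (2.6%), 1 of 77 (1.30%) and 0 of 82. Genes recur over classes, so the tests of a list are not independent. The median log2 fold changes of the desensitisation list were -0.16, 0.05 and -0.10, and those of the other 4 lists were between -0.04 and 0.05.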

How the data were processed

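Nuclei from dHF micropunches of 15 mice were profiled with 10x Genomics 3′ chemistry. The deposited matrices hold raw UMI counts per gene and barcode, made by the authors with Cell Ranger. The submitters' processing notes name Cell Ranger 7.1.0, Seurat, mm10 and GRCm39, and the file headers name cellranger-7.0.0. Reads over introns and exons cannot be separated in these counts. Without the reads, how the antisense overlaps were counted is not given in the sources used here.

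From the counts, nuclei with at least 200 genes and at most 5% mitochondrial UMIs were kept, and doublets were removed with Scrublet at an expected 0.8% per 1000 barcodes (265 to 1298 barcodes per library). Scanpy 1.11.5 clustered nuclei on 2000 variable genes without the receptor family (30 components, 15 neighbours, Leiden resolution 1, seed 1). Clusters of at least 50 nuclei were named when at least 3 markers of a list reached 5 CPM and a fold of 2 over the median cluster, the mean log2 fold of the list was at least 2, and excitatory or GABAergic names had at least 50 CPM of Slc17a7 (not asked of thalamic and habenular names) or of Gad1 and Gad2 together. A cluster that met this stayed unnamed where another list had more markers among its 10 leading genes (of those at 20 CPM or more), or where its nuclei were shallow and none of its own markers was among them. The rule that keeps unnamed clusters by number was set after the clusters were seen. Class names were rebuilt and can differ from the study's.

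CPM were computed per mouse and class from summed counts, with a pseudocount of 1 CPM on the log2 scale. Group tests used edgeR 4.0.16 (R 4.3.3) on summed counts with TMM scaling and its filter on low counts, all 3 groups in 1 fit, at least 10 nuclei per mouse and at least 3 mice per group, with adjusted p under 0.05 as the threshold. DESeq2 1.42.0 was an alternative. Within-batch values are log2 ratios of mean CPM with no pseudocount. In simulated counts for stress RE minus control RE, edgeR recovered 65%, 66% and 62% of genes given a log2 change of 1. The values are for OPC-like (10018 genes), Sst interneuron-like (11382 genes) and thalamic excitatory-like nuclei (14207 genes). In the same order, it recovered 94%, 90% and 91% of those given a change of 2, and made 16, 16 and 6 false calls. Changed genes were drawn at random from all tested levels with no batch effect, so these rates are not the power for the receptors. Alternatives changed the tool, scaling, filter, batch handling, nuclei per mouse, clustering, pseudocount and depth, and left out each mouse in turn. Batch 1 held no control RE mouse. The study reports that every processing batch included mice of each group, so these batch numbers may differ from its batches.

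The receptors and gene lists were chosen with earlier results of these data known. All 6 receptors were described in every class, and group values or log2 fold changes were given for each class with an unadjusted p under 0.05. They were also given for a receptor's highest class, apart from Adra2a in VLMC-like and Adrb1 in ependymal-like nuclei, which were not tested. No receptor sequence is printed. Some genes of the lists are not reported here by name. Percentages and CPM carry counting error as well as the spread between mice.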

Additional observations from a re-analysis of the deposited data

Results flagged for a closer look

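Among the 43 groups of 4 to 10 mice that were checked for a value far from the others, 1 stood out. Chance alone flags about 1 in 20 such groups. Adra2a in VLMC-like nuclei was at 36.2 CPM in control RE mouse 72, on 10 UMIs in 120 nuclei, whereas the other 3 control RE mice had 4.49 to 8.87 CPM. The gap to the nearest of the others was 0.862 of the range of the group.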

How the results depend on the processing

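The count of receptors with an adjusted p under 0.05 was 0 in all 3 contrasts under each of the 22 alternatives. At an unadjusted p under 0.05 the counts ran from 1 to 14 for control RE minus NP, 1 to 13 for stress RE minus control RE and 3 to 12 for stress RE minus NP, the highest of them without a filter on low counts. Adra1a in OPC-like nuclei ran from -0.52 to -0.35 for stress RE minus control RE and from -0.49 to -0.32 for stress RE minus NP with each mouse left out. Of 27 named differences with 575 alternative values, 13 values turned round in 6 differences. With Leiden resolution 2, Adra1a in Sst interneuron-like nuclei was 0.34 for control RE minus NP, 0.20 for stress RE minus control RE and 0.54 for stress RE minus NP. There, the Lamp5 interneuron-like nuclei are no longer in that class. The stress RE minus control RE value was also 0.0447 with batch as a term, and ran from -0.0854 to 0.15 with each mouse left out, being above 0 without stress RE mouse 43 (0.0246) and control RE mouse 87 (0.15). For control RE minus NP, Adra1b in thalamic excitatory-like nuclei ran from -0.20 to 0.0335, the latter without control RE mouse 88, Adra2c in striatal-type nuclei from -0.45 to 0.13, the latter without control RE mouse 87, and Adra1d in cluster 13 ran from -0.077 to 0.082 with each mouse left out, with -0.049, -0.024, -0.077, -0.077 and -0.020 without mice 27, 37, 66, 73 and 87. None of these values had been past a threshold, and the cause was not tested.

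Among the steps between a receptor's highest class and the next, Leiden resolution 2 gave -0.72 for Adra1a (Sst minus Cck), 0.92 for Adra2c (now past the threshold) and -1.74 for Adrb1 (now past the threshold). Thinning gave 0.14 for Adra1b, -0.56 for Adra2a and -0.18 for Adra2c. At least 30 nuclei per mouse gave 0.47 for Adra1d, with fewer mice. With each mouse left out the steps ran from 0.08 to 0.17 for Adra1a, 0.57 to 0.74 for Adra1b, 0.50 to 0.83 for Adra1d, -0.15 to 0.13 for Adra2a, 0.42 to 0.67 for Adra2c and -2.49 to -1.46 for Adrb1. Adra2a turned round without control RE mice 72 (-0.15) and 87 (-0.0078), and Adra2c passed the threshold without NP mouse 63 (0.67). Numbered clusters have no value at resolution 2. Apart from those named, the cause was not tested. For the group comparisons, fits with batch as a term were run. No paired analysis was possible because mouse numbers are not shared between groups, whereas the steps between classes were paired within mice throughout.

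Depth limits Adra2a and Adra2c most, since their UMIs per class and mouse were few. Without replicate libraries per mouse, the spread behind the p-values is that between mice and between libraries together.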

Other observations

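Gm50100, the gene whose levels over classes were most like those of Adrb1 (r = 0.92 over 23 classes), lies near it on chromosome 19. The annotation lists it as a long intergenic non-coding RNA on the opposite strand at chr19:56741029-56746913 (mm10), 7916 bp beyond the 3′ end of Adrb1. It held 6.70 CPM in ependymal-like and 6.18 CPM in microglia-like nuclei.

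The Gata3 GABAergic-like class was uneven in its receptors. Adra1a was at 47.8 CPM in its cluster 4, 7.52 in cluster 5 and 17.9 in cluster 31, and Adrb1 was at 9.38, 0.826 and 16.1 CPM in the same clusters. Adra1b was at 14.9, 1.97 and 18.8 CPM. No test was made between these clusters, and the name of the largest, cluster 4, was not kept for 3207 nuclei with the same leading genes at Leiden resolution 2.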
